A study of Ginkgo biloba with 15 samples.

Results

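A set of 170 genes of the Ginkgo biloba embryo was expressed in September, much lower in November and at about the November level in February. The members were chosen by their measured levels among 41840 annotated genes, in 43690 gene models in all. Levels were averaged per month as log2(FPKM + 1), where FPKM corrects the fragments counted for gene length and sequencing depth. A member had a November minus September difference of -2 or less, a February minus November difference within 0.5 either way, all 4 November and February libraries below both September libraries, and a September mean of 5 FPKM or more. The members' differences between months are therefore given as descriptions, and the calls of the fit across all genes are no test of them. Membership leaned on single libraries, since 303 genes met the rule without November library 1, 99 of them members, and 140 met it without November library 2, 86 of them members. Of the 170 members, 49 met the rule with each of the 6 libraries left out in turn. These 49 include members with no read after September, whose February minus November difference stays at 0 whichever library is left out. Their median September mean was 14.9 FPKM, against 21.0 FPKM for all 170 members.

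Whole embryos were taken from healthy trees growing outdoors on a university campus in Yangzhou, in September and November of 2015 and in February of 2016. Messenger RNA was sequenced in 6 libraries, 2 per month, with no treatment or genotype other than the collection month. No label says whether the libraries of a month came from separate trees or seeds, so the spread between them may be technical. Recovered depth was 14508997 to 19641543 reads per library. The correlation of log2(FPKM + 1) within a month was 0.982 in September, 0.951 in November and 0.980 in February. In such bulk tissue, fewer cells of a type and less RNA per cell cannot be told apart.

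Ginkgo is a gymnosperm tree whose seeds drop in autumn while the embryo inside is still small. The embryo lies in the megagametophyte, a nourishing tissue that holds starch and protein, and goes on growing in the shed seed before it can germinate. In plant embryos generally, genes of cell division and patterning are active early, and genes of storage and of tolerance to drying follow. The source used here pairs gene identifiers with scaffold positions and with no names or functions. Roles are therefore not given, markers of megagametophyte or seed coat were not checked, and no sequence is shown. Positions are those of the deposited table, whose genome build is not given in the sources used here.

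The members were ordinary genes by their level in September and stood well below the rest in the later months. Their median was 18.2 and 21.6 FPKM in the 2 September libraries, 1.65 and 1.52 FPKM in November and 1.63 and 1.61 FPKM in February. The other 14124 annotated genes with a September mean of at least 5 FPKM had medians of 20.7 and 21.3 FPKM in September, 21.0 and 19.6 FPKM in November and 19.9 and 19.5 FPKM in February. The members' November minus September difference had a median of -2.60 and ran from -5.16 to -2.0004 on the log2(FPKM + 1) scale, beside a median of -0.14 for the other genes. Their February minus November difference had a median of -0.09, with 63 members higher, 101 lower and 6 at exactly 0 in February. Members supplied 1.28% and 1.31% of all reads in September, 0.209% and 0.216% in November and 0.209% and 0.208% in February.

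**Figure D1:**
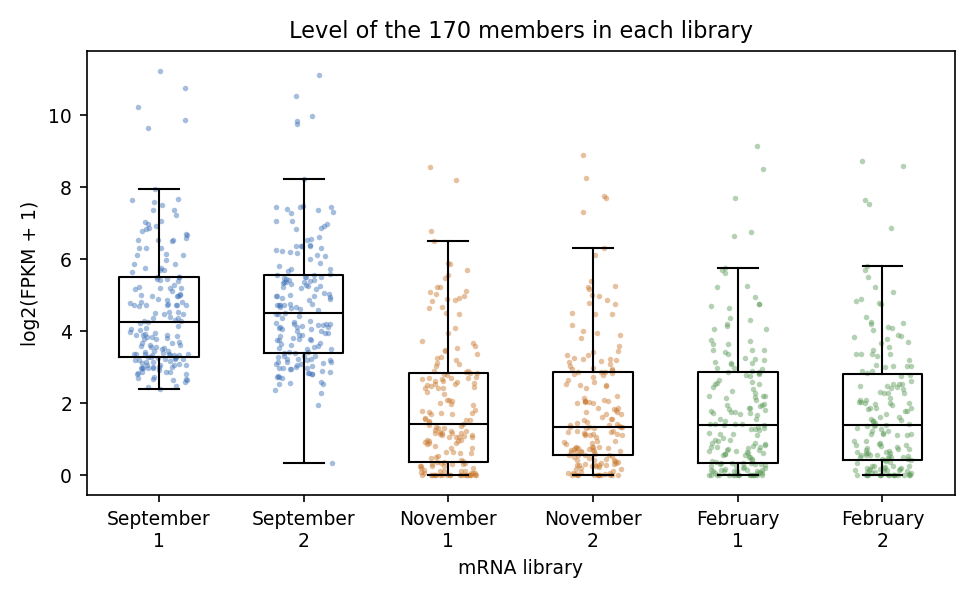
Level of each of the 170 members in each mRNA library, as log2(FPKM + 1) on the vertical axis. Points are genes and boxes span the quartiles with the median as a line; the median FPKM is 18.2 and 21.6 in September and between 1.52 and 1.65 in the 4 later libraries.

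Across all genes, limma on log2(FPKM + 1) called 15.9% of 22947 tested genes lower in November than in September at a Benjamini-Hochberg adjusted p under 0.05, and 33.9% lower in February than in September. Among the 169 members that entered the fit, 160 were called lower in November and 163 lower in February. The rule chose the members on these same values, so the counts are no test of them. Of these 169, 46 passed the filter of 1 FPKM in 2 libraries through the September libraries alone. The standard error of a member's monthly difference ran from 0.16 to 1.40 with a median of 0.32, beside a median of 0.23 over all genes tested. Between February and November limma called 41.2% of all genes in either direction and 0 of the 169 members, and 0 members had an unadjusted p under 0.05. The limma-voom fit on recovered reads also called 0 members. With a pseudocount of 0.1, limma called 1 member. Members were also called when a November library was left out, but such fits hold 1 November library and their counts are not given. The rule kept only genes with a small difference between the means of those months. That bound holds all these counts down, and nothing is read from them. The members' median February minus November difference was -0.033 without November library 1 and -0.0016 without November library 2.

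Genes that were lower by 2 or more in November took 3 courses by February, as the rule's bound of 0.5 divides them. Such early fallers, with a September mean of at least 5 FPKM and both November libraries below both September ones, numbered 581. The 170 members made up 29.3% of them. A further 332 genes, or 57.1%, were lower again by more than 0.5 in February, with a median February minus November difference of -1.59. The remaining 79 genes, or 13.6%, were higher again by more than 0.5, with a median of 1.18, and 16 of them by 2 or more. The rule's bounds of 0.5 cut a continuous spread of values, and no gap separates the 3 courses in the plot of the 2 differences.

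**Figure D2:**
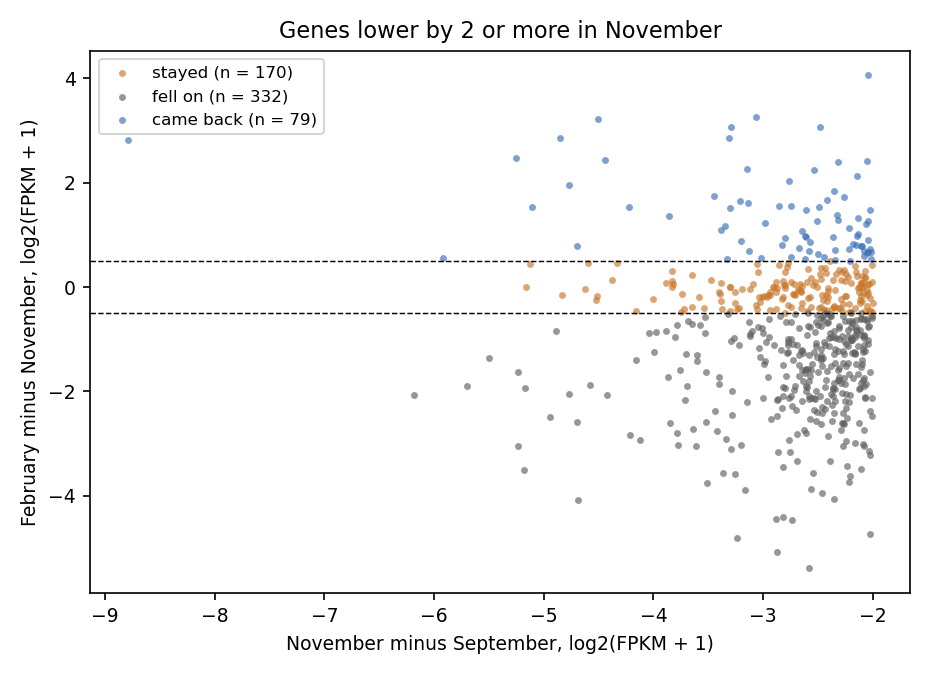
The 581 genes lower by 2 or more in November, with the November minus September difference on the horizontal axis and the February minus November difference on the vertical axis, both in log2(FPKM + 1). Colours mark the 170 genes that stayed within 0.5, the 332 lower again by more than 0.5 (labelled fell on) and the 79 higher again (labelled came back); the dashed lines are the bounds at 0.5 either way, and points lie on both sides of each line without a break.

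The most abundant member in September was Gb_26584, on scaffold 4575 (1489867 to 1490859, minus strand). It had 2409 and 2213 FPKM in the September libraries, 375 and 303 FPKM in November and 564 and 382 FPKM in February. The September libraries lie far above the others, and both February libraries lie above both November ones, the lower by a small margin. Its November minus September difference was -2.77 ± 0.26 (SE from limma), and its February minus November difference of 0.46 was among the 2 members nearest the upper bound. Its mean was 339 ± 51.5 FPKM in November and 2311 ± 139 FPKM in September (SD, n = 2 each), so that it stayed an abundant RNA after the drop.

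The second most abundant member lies on scaffold 769 (416185 to 416964, minus strand). It had 1738 and 1495 FPKM in September, 293 and 477 FPKM in November and 366 and 423 FPKM in February. The February values lie between the November ones. A further member on the same scaffold (314775 to 315555, minus strand), the seventh most abundant, had 203 and 175 FPKM in September, 29.0 and 37.6 FPKM in November and 37.0 and 36.3 FPKM in February. Both genes of scaffold 769 have a listed length of 687 bases, and whether they are near-identical copies that share reads cannot be judged without sequence. A gene model between them (385774 to 386600, minus strand) had 82.5 and 60.5 FPKM in September, 12.3 and 26.2 FPKM in November and 30.8 and 39.1 FPKM in February. It missed the rule with a November minus September difference of -1.91 and a February minus November difference of 0.91.

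A gene of scaffold 2473 (101470 to 102075, minus strand), the next in September, had 1199 and 1008 FPKM in September, 110 and 208 FPKM in November and 209 and 198 FPKM in February. The fourth, on scaffold 22713 (62841 to 65070, minus strand), had 929 and 918 FPKM in September, 90.8 and 159 FPKM in November and 107 and 117 FPKM in February. The fifth, on scaffold 24912 (4752 to 6719, plus strand), had 805 and 869 FPKM in September, 46.0 and 216 FPKM in November and 98.9 and 186 FPKM in February. In each of the 3 genes the September libraries stand close together and November library 1 is the lowest of all. These 5 highest members held 47.0% and 43.3% of all reads of members in the 2 September libraries, so sums over the members mostly describe a few genes.

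The next genes in order of September abundance averaged between 154 and 273 FPKM in that month. The sixth, on scaffold 10637 (2191320 to 2192614, minus strand), had 245 and 301 FPKM in September, 57.3 and 68.7 FPKM in November and 52.7 and 50.6 FPKM in February. The eighth, on scaffold 12262 (845612 to 846861, plus strand), had 192 and 177 FPKM in September, 5.54 and 28.4 FPKM in November and 10.1 and 13.2 FPKM in February. In the eighth gene, but not in the sixth, the November libraries were several-fold apart and the February libraries lay between them.

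The ninth, on scaffold 8969 (559078 to 562406, minus strand), had 182 and 174 FPKM in September, 27.4 and 36.2 FPKM in November and 30.1 and 26.4 FPKM in February. The tenth, on scaffold 2220 (1163062 to 1163740, minus strand), had 198 and 156 FPKM in September, 30.5 and 31.0 FPKM in November and 48.2 and 27.9 FPKM in February. In both, the later libraries of the 2 months overlap at a low level. The twelfth, on scaffold 1087 (7981702 to 7982277, plus strand), had 134 and 175 FPKM in September, 1.16 and 25.9 FPKM in November and 4.21 and 20.03 FPKM in February. Its library 1 was the lower one in each month, and its November mean of 13.5 ± 17.5 FPKM (SD, n = 2) hides a gap larger than the mean itself. The seventh, the ninth and the fourth gene are the 3 of the 12 highest that met the rule with each library left out in turn.

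**Figure D3:**
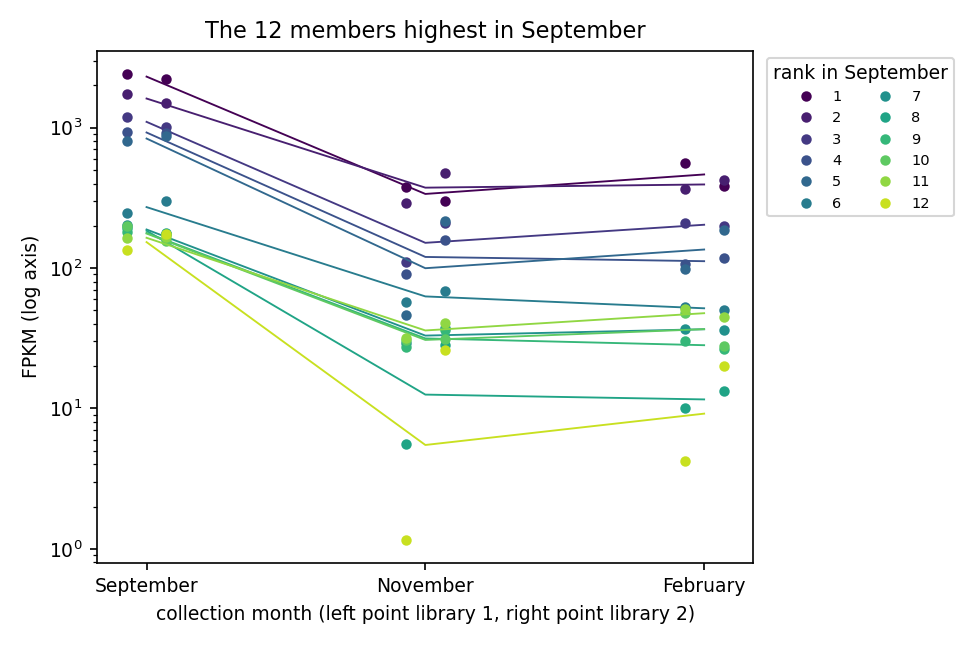
FPKM (log axis) of the 12 members with the highest September mean, by collection month in order. Each point is a library, colours give the rank in September and lines join the geometric means of the 2 libraries of a month; all 12 are highest in September, and the twelfth gene ranges from 1.16 to 25.9 FPKM within November.

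The share of its September level that a member kept was larger in genes higher in September. Adding 1 FPKM before the logarithm compresses low values, so the rule itself allows low genes only a smaller share. Whether the share varied beyond this was not tested. A gene at 5 FPKM in September has to be almost absent later to be lower by 2 on this scale. Over all members the November mean was a median of 9.93% of the September mean, between 0% and 39.4%, and the February mean was 8.34%, between 0% and 29.1%. The 23 members with 100 FPKM or more in September kept 17.6% of that level in November and 18.3% in February as medians. The 65 members between 20 and 100 FPKM kept 13.8% and 11.9%, and the 82 members between 5 and 20 FPKM kept 7.22% and 4.95%, in the same order of months. A group of 47 members was under 1 FPKM in all 4 later libraries, and 80 were at 1 FPKM or more in all 4, of which 17 were at 10 FPKM or more. The November to September ratio of those 17 had a median of 19.5%.

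The later values of many members rest on few reads. The median member had 271.5 and 386 reads in the September libraries, 26.5 and 31.5 reads in November and 23 and 22 reads in February. In the 4 later libraries 50 to 60 members had under 10 reads, and 11 to 21 members had none. Such members can show that RNA was scarce in both later months, but whether they differed between November and February was not detectable at this depth.

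The steepest drop belonged to Gb_16914, on scaffold 2579 (3566200 to 3567379, plus strand). It had 31.0 and 39.0 FPKM in September, from 236 and 355 reads, and no read in any of the 4 later libraries. A count of 0 allows up to 3 reads, which for this gene is at most 0.355 FPKM in a library, so the lower September library was at least 87.3-fold higher than each November or February library. These limits cover counting error only. The gene of scaffold 4839 (14215 to 14582, plus strand) had 92.2 and 157 FPKM in September, 8.82 and 0.223 FPKM in November and 6.81 and 1.85 FPKM in February. Its November library 2 held 1 read and its November library 1 held 33, so its difference of -5.13 depends strongly on which November library is read.

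Of the other 4 of the 6 steepest members, 3 were nearly silent after September. The gene of scaffold 2183 still had 51 reads in November library 1 and 101 reads in February library 1. The gene of scaffold 7137 (19336 to 20349, plus strand) had 26.4 and 38.3 FPKM in September, 0 and 0.323 FPKM in November and 0.0787 and 0 FPKM in February. The gene of scaffold 19734 (150626 to 151400, plus strand) had 44.4 and 21.8 FPKM in September, 0 and 0.717 FPKM in November and 0.486 and 0.0945 FPKM in February. Neither gene had more than 9 reads in a later library. The gene of scaffold 2183 (3027636 to 3032035, plus strand) had 25.5 and 47.1 FPKM in September, 1.09 and 0.0358 FPKM in November and 2.20 and 0.276 FPKM in February. The gene of scaffold 20447 (113825 to 114847, plus strand) had 25.2 and 29.1 FPKM in September, 0 and 0.498 FPKM in November and 0 and 0.0590 FPKM in February. In the gene of scaffold 2183, unlike the other 3, library 1 was the higher one in both later months.

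Besides Gb_16914, 5 members had no read in any later library. By the same limit the lower September library was at least 30.6-fold higher for the gene of scaffold 6143 (1014489 to 1016001, minus strand) and at least 62.1-fold higher for that of scaffold 2572 (169878 to 178435, plus strand). It was at least 8.87-fold higher for that of scaffold 10019 (63476 to 63751, plus strand) and at least 33.4-fold higher for that of scaffold 12193 (29705 to 31242, plus strand). The gene of scaffold 93 (1691282 to 1691728, minus strand) allows no such bound. It had 13.4 and 0.258 FPKM in September, which is 87 reads in library 1 and 2 reads in library 2, so its membership comes from a single September library. It was the only member whose September libraries were over 4-fold apart, and 14 members had September libraries 2-fold or more apart.

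The distance between September and the later libraries differed widely among members. In 158 of 170 members the highest November or February library was at most 50% of the lowest September library. The median ratio of the lowest September to the highest later library was 5.15 among members with a read after September. In 98 members each later library was lower than the September mean by 2 or more on the log2(FPKM + 1) scale, and in 162 by 1 or more. The narrowest margin was that of scaffold 2408 (149487 to 150174, plus strand), with 129 and 83.1 FPKM in September, 5.43 and 78.1 FPKM in November and 15.7 and 18.3 FPKM in February. Its November library 2 nearly reached the lower September library, at a ratio of 1.06.

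Genes at the edges of the rule resemble one another across each edge. A gene of scaffold 12816 (128402 to 132048, minus strand) was just inside at a November minus September difference of -2.0004, and a gene of scaffold 3466 (330838 to 332724, plus strand) was just outside at -1.99. The outside gene had 87.8 and 102 FPKM in September, 27.3 and 19.4 FPKM in November and 30.5 and 21.0 FPKM in February, a clear drop to a held level. At the upper bound of the February minus November difference, genes of scaffold 936 (1606437 to 1606688, plus strand) and scaffold 2471 (1521018 to 1521815, minus strand) stood at 0.496 inside and 0.507 outside. At the lower bound, genes of scaffold 15849 (243129 to 246183, minus strand) and scaffold 4565 (1353616 to 1354641, minus strand) stood at -0.493 inside and -0.504 outside. At the September level, genes of scaffold 2725 (298662 to 300421, plus strand) and scaffold 2073 (449025 to 450405, minus strand) had means of 5.04 FPKM inside and 4.84 FPKM outside.

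The November libraries disagreed for many members, and the held mean then averages a high and a low library. The 2 November libraries differed by more than 1 on the log2(FPKM + 1) scale in 55 of 170 members, 28 with library 1 the higher and 27 with library 2 the higher. Among the other 14124 genes 977 did so. The median gap between libraries of a month was 0.563 for members in November, beside 0.278 for the other genes. In September it was 0.313 for members and 0.182 for the other genes, and in February 0.210 for members and 0.227 for the other genes. Among the early fallers that were lower again in February the median November gap was 1.55, and 212 of 332 differed by more than 1. Among those that came back it was 0.585, and 22 of 79 did so. The November gap of members was thus above that of the other genes and below that of the early fallers that were lower again, as a description with no test. The part of low read counts in these gaps was not tested.

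In 72 members each November library lay within 0.5 of the February mean. Adding 1 FPKM before the logarithm compresses low values, so members near 0 meet this bound easily. The 6 members with no read after September meet it at 0. A group of 47 members was under 1 FPKM in every November and February library, and their number among the 72 is not given. For such members the bound says little about a level held in both libraries. In 35 members a November library lay more than 0.5 above the February mean and the other more than 0.5 below it. Library 1 was the higher of the pair in 18 of the 35 and library 2 in 17. The rule bounds only the difference of the monthly means, so it admits such pairs. Library 1 was the lower November library in 46.5% of members, against 24.4% of the 332 early fallers that were lower again in February and 43.0% of the other genes. The February libraries overlapped the November ones in 139 members. Both lay above in 10 members, where 33% of all tested genes did so, and both lay below in 21 members, where 40.3% of all tested genes did so. The rule's bound of 0.5 between these months holds both counts down, so nothing is read from them. Of 3325 steady genes, within 0.5 at both steps, both lay above in 825 and both below in 842.

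**Figure D4:**
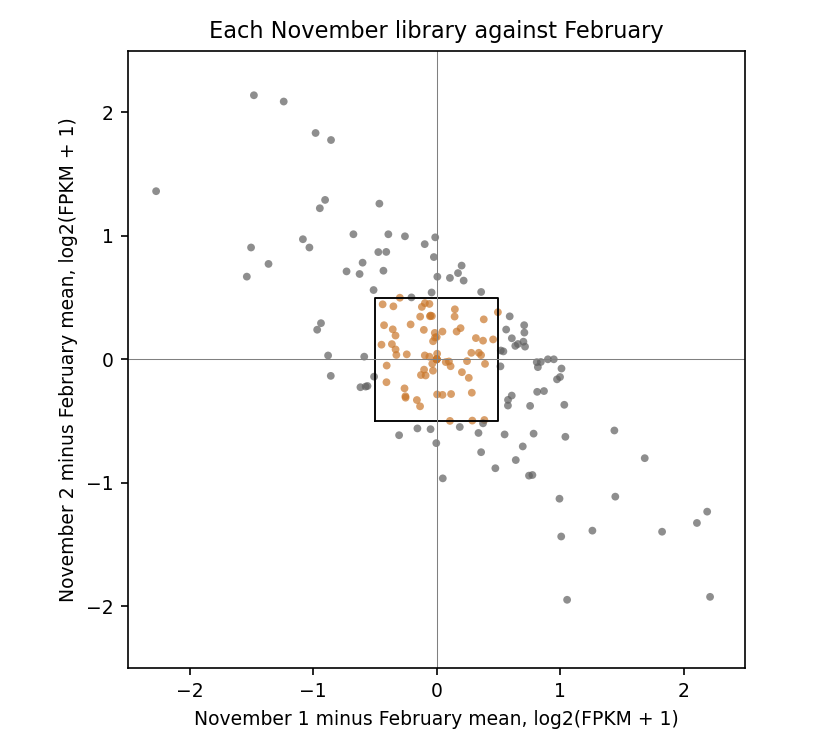
Difference of each November library from the February mean for the 170 members, in log2(FPKM + 1), with library 1 on the horizontal and library 2 on the vertical axis. Orange points inside the square are the 72 members with both libraries within 0.5; points far out in the upper left and lower right include the 35 members with the libraries on opposite sides by more than 0.5.

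The members were compact genes, a property that the rule did not use. The span on the scaffold, from first to last base with introns, had a median of 1793 bases in members and 3750 bases in the other 14124 genes. Listed gene length differed little, with a median of 1032 bases in members and 1134 bases in the other genes. Only 16 members, or 9.41%, spanned 10000 bases or more, against 39.4% of the other genes, and 8 members, or 4.71%, spanned 100000 bases or more, against 19.8%. The span equalled the listed length, as in a gene without introns, in 30 members or 17.6%, against 15.0% of the other genes. Among the 49 members that met the rule with each library left out, the median span was 1907 bases and 4 genes, or 8.16%, spanned 10000 bases or more.

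Short span was shared with other genes that changed and was not particular to the members. The median span was 1649.5 bases in early fallers that were lower again in February and 1145 bases in those that came back. It was 1955 bases in 125 late fallers (within 0.5 until November and lower by 2 or more in February) and 1799.5 bases in 112 early risers that held their level (the mirror image of the members). In 3325 steady genes the median span was 8573 bases, and 49.1% spanned 10000 bases or more. These are descriptions of sets chosen on levels, and no test was made of them.

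**Figure D5:**
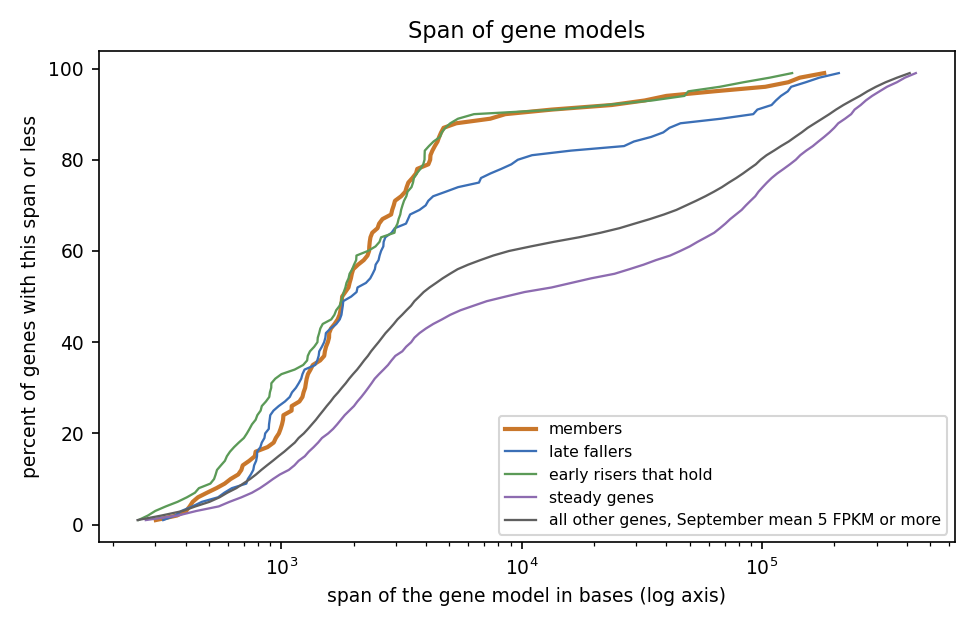
Span of genes on the scaffold (horizontal log axis, bases) against the percent of genes in each set with that span or less (vertical axis). Lines show the 170 members, the other genes with a September mean of at least 5 FPKM, late fallers, early risers that hold and steady genes; the members' line reaches 1793 bases at the 50th percentile, against 3750 bases for the other genes and 8573 bases for steady genes.

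A few members were exceptions with very long spans. The longest, on scaffold 9407 (779829 to 1107863, plus strand), covers 328035 bases and had 21.3 and 24.3 FPKM in September, 0.0825 and 6.62 FPKM in November and 1.05 and 1.23 FPKM in February. The next, on scaffold 1446 (1282892 to 1519862, plus strand), covers 236971 bases and had 9.41 and 13.9 FPKM in September, 2.39 and 0.237 FPKM in November and 1.21 and 1.15 FPKM in February. Another, on scaffold 2728 (304227 to 460944, plus strand), covers 156718 bases and had 57.003 and 81.5 FPKM in September, 36.8 and 5.94 FPKM in November and 19.8 and 15.9 FPKM in February. All 3 had November libraries more than 4-fold apart, with the February libraries close together between them.

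Members were scattered over the assembly. They lay on 163 scaffolds of the 8272 in the table, 7 of which carried 2 members and none more. The strands were even, with 85 members on each. In 2 of the 7 pairs no other annotated model lay between the members. The pair of scaffold 9875, both on the minus strand and 2324 bases apart, joins the eleventh most abundant member (118205 to 118951) to a longer gene (111714 to 115880). The more abundant gene had 163 and 166 FPKM in September, 31.7 and 40.8 FPKM in November and 50.7 and 44.8 FPKM in February. Its neighbour had 36.6 and 42.1 FPKM in September, 6.39 and 8.54 FPKM in November and 10.1 and 9.0006 FPKM in February. Both were slightly above their November libraries in February. The November mean was 22.1% of the September mean in the more abundant gene and 19.0% in its neighbour.

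The other adjacent pair lies on scaffold 3788, where a plus-strand gene (737712 to 738023) and a minus-strand gene (737837 to 738666) overlap by 187 bases. The minus-strand gene had 15.9 and 44.3 FPKM in September, 0 and 0.465 FPKM in November and 0.142 and 0 FPKM in February. The plus-strand gene had 15.2 and 25.5 FPKM in September, 0 and 0 FPKM in November and 0 and 0.194 FPKM in February. The use of strand in counting is not given in the sources used here, so reads from the 2 genes cannot be told apart and they may stand for 1 transcript. In all, 13 members, or 7.65%, overlapped a model on the opposite strand, against 18.3% of the other genes. The share was 9.04% in early fallers that were lower again in February and 11.4% in those that came back. It was 16% in late fallers and 17.9% in early risers that held their level. A partner on scaffold 4816 (1030639 to 1033256) had means of 1.34 FPKM in November and 4.59 FPKM in September, a difference of -1.29. Its member lies at 1027160 to 1031339. A partner on scaffold 2292 (1048602 to 1056106) had means of 0.906 FPKM in November and 0.854 FPKM in September, a difference of 0.02. The other partners that were not members did not enter the limma fit.

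Genes next to members were not chosen by the rule, and their levels are described here without a test. A nearest non-overlapping neighbour was found for 156 members, and 86 distinct neighbours were not members and had entered the limma fit. Of these, 25, or 29.1%, were lower by 1 or more in November on the log2(FPKM + 1) scale, against 859 of 7768, or 11.1%, of the neighbours of the other genes. The median neighbour difference was -0.49 for members and -0.07 for the other genes. In the opposite direction, 6 neighbours of members, or 6.98%, were higher by 1 or more, against 10.4%. The share ran from 27.9% to 31.4% for members, and from 9.20% to 13.5% for the other genes, when a September or November library was left out.

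The shares were also counted by distance. Nearer than 50 kb, a distance set after the values were seen, 11 of 19 neighbours of members were lower by 1 or more, or 57.9%, against 12.3% for the other genes. At 50 kb or farther it was 14 of 67, or 20.9%, against 10.6%. The neighbour of the member on scaffold 8492 (1128322 to 1129089, minus strand), 6184 bases away, had 37.1 and 24.7 FPKM in September, 1.88 and 5.62 FPKM in November and 1.92 and 1.99995 FPKM in February. It missed the rule only by its February minus November difference of -0.56. The neighbour of the narrow-margin gene of scaffold 2408 (180853 to 181536, plus strand) had 533 and 449 FPKM in September, 71.4 and 219 FPKM in November and 26.0 and 16.3 FPKM in February.

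The other early fallers had lower neighbours too. Next to early fallers that were lower again in February, 65 of 194 tested neighbours, or 33.5%, were lower by 1 or more. Next to those that came back it was 10 of 39, or 25.6%. Only members were left out of these neighbours, so neighbours of the same set stayed in. The members' share had such neighbours removed, so the shares are not on a like basis. Whether neighbours are near-identical copies that share reads was not tested, since no sequence was used here.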

How the data were processed

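The deposited mRNA table gives FPKM per gene and library, per the file headers, with scaffold, strand, start, end and listed length. Bowtie, TopHat2 2.0.12, HTSeq 0.6.1 and CASAVA 1.8 appear in the submitters' processing notes, with no role stated. Genome build, annotation and strand use were not given in the sources used here. FPKM times length was a whole multiple of 1 step per library for every annotated gene, within 0.05 of a read; this gave recovered reads.

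The members and lists were chosen with earlier results of these data known. Gene lists defined by names could not be applied. limma 3.58.1 in R 4.3.3 was fitted to all 6 libraries on the log2(FPKM + 1) scale, with a mean-variance trend and 3 residual degrees of freedom, for genes at 1 FPKM or more in 2 libraries, with Benjamini-Hochberg adjustment at 0.05; it was tested on simulated data. Genes described were the 12 highest in September, the 6 steepest, the 3 longest, adjacent pairs and those at each bound; others were chosen after their values were seen, namely the members at 0, the narrowest margin and neighbours or partners. Only 2 are given by identifier, since no table pairs names. The 9 small-RNA libraries were not used here. Alternatives changed the pseudocount, scaling, filter, bounds, block, test and libraries.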

Additional observations from a re-analysis of the deposited data

How the results depend on the processing

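The number of members was 170 and followed the bounds: 318 with a November minus September difference of -1.5 or less, 94 with -2.5 or less, 100 with the February minus November difference within 0.25 and 292 within 1. Leaving out each library in turn gave 140 to 303. A pseudocount of 0.1 gave 152 genes, 114 of them members, and a pseudocount of 0.5 gave 163 genes, 143 of them members. Median-ratio scaling gave 161 genes, 150 of them members, and upper quartile scaling gave 163 genes, all of them members. The members' median November minus September difference of -2.60 became -3.39 with a pseudocount of 0.1 and -2.94 with 0.5, and ran from -2.67 to -2.55 without each library. The February minus September median of -2.72 became -3.51 and -3.06 with these pseudocounts and -2.60 with median-ratio scaling, and ran from -2.77 to -2.64. The February minus November median of -0.09 became -0.012 with median-ratio scaling and ran from -0.091 to -0.0016. That scaling moved the median of all tested genes between February and September by 0.13. The cause of these shifts was not tested, beyond the pseudocount's own effect on low values.

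Over all tested genes, limma called 6990 in November against September, 9462 in February against November and 14000 in February against September. Without each library the counts ran from 2027 to 7143, from 3995 to 9287 and from 9904 to 15032, in that order of comparisons; the lowest of the first came without September library 2, with 2252 without September library 1, and the lowest of the second without February library 1. With a replicate block the counts were 5768, 8215 and 13110. The deviations of same-numbered libraries correlated at -0.086 between September and November, 0.098 between November and February and -0.18 between September and February. These values cannot show whether same-numbered libraries share more than a number, since the labels do not say. With 2 libraries per month, no outlying library could be tested for, and values under about 3 reads cannot be told from 0.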
